A study of Mus musculus with 9 samples.

Results

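The colons of Atorvastatin mice were compared with those of Model mice, which had been given dextran sulfate sodium (DSS), across all genes of the deposited count table. The comparison rests on 6 of the 9 libraries of the study, Atorvastatin 1 to 3 and Model 1 to 3, found by their names in the table. Normal 1 to 3 entered the fit to share in the estimate of the spread and are given as the background level. All libraries are labelled as wild-type colon of female C57BL/6 J mice. Per the labels, atorvastatin was gavaged at 10 mg/kg, in 0.2 mL once a day for 5 days, from day 3 to day 7. Model mice received a 5% DSS solution over 7 days, and Normal mice the vehicle, 0.5% CMC-Na, over 7 days. The labels do not say outright that the Atorvastatin mice were also given DSS. They also do not say that each library came from its own mouse, so the p-values below rest on the variation from library to library, part of which may be technical.

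DSS is a sulfated polymer that strips and injures the epithelium of the colon, and the injury is followed by inflammation and then by regrowth from the crypts. Atorvastatin is a statin, a drug that blocks the early, rate-limiting part of cholesterol synthesis. Cells that run short of sterol activate SREBP2, which raises transcription of the enzymes of that pathway.

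No gene passed the test across all genes. In edgeR's quasi-likelihood test 0 of 16160 genes had a Benjamini-Hochberg adjusted p under 0.05 (0%), and the smallest adjusted p was 0.322. At an unadjusted p under 0.05 there were 962 genes higher (5.95%) and 946 lower (5.85%) in Atorvastatin than in Model. DESeq2 called 312 genes at an adjusted p under 0.05, with 188 higher (1.26% of the 14878 genes it could adjust) and 124 lower (0.833%). All 3 Atorvastatin libraries lay above all 3 Model libraries for 1276 genes (7.9%), and below them for 1244 genes (7.7%). The genes and lists below are therefore described by their values, by these counts and by unadjusted p, and none of them is called changed. Apart from 22 genes fixed by the rule for named genes, the genes below were chosen after their values were seen. The median log2 fold change over all genes was -0.03, and 46.2% of genes had a positive one.

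Genes of cell division stood higher in Atorvastatin: all 23 of the list had a positive log2 fold change, and 21 had an unadjusted p under 0.05. On the lower side in Atorvastatin were 7 of 15 genes of the hypoxia response, 7 of 14 genes of MHC class II antigen presentation and 8 of 18 genes of the circadian clock, by the same measure. Of the 20 cholesterol synthesis genes, none had an unadjusted p under 0.05. Digestive enzyme genes of the pancreas, abundant in Model 2 and Model 3 and not in Model 1, had the lowest list median, at -4.93.

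Total estimated counts were 72584333 to 91737502 per library. The 33 pancreatic acinar genes, which encode the enzymes of pancreatic juice, took 0.463%, 0.203% and 0.00796% of the counts in Atorvastatin 1, 2 and 3, against 0.0231%, 11.3% and 5.01% in Model 1, 2 and 3. They took 0.264%, 0.249% and 0.044% in Normal 1, 2 and 3. Chymotrypsinogen Ctrb1 had 559, 255 and 0.955 CPM (counts scaled to the library size) in Atorvastatin 1, 2 and 3, against 7.03, 18736 and 7374 CPM in Model 1, 2 and 3. Some genes of the small intestine were high in a single library. Lactase (Lct), a brush border enzyme, had 0.375, 0 and 0.107 CPM in Atorvastatin 1, 2 and 3 and 0.0472, 0.11 and 50.3 CPM in Model 1, 2 and 3. Apolipoprotein Apoa1 had 0, 0.0907 and 0.143 CPM in the Atorvastatin libraries, against 0.436, 0.694 and 63.7 CPM in the Model libraries. Both genes were high in Model 3 alone. Genes that mark position along the colon differed within every group. Hoxb13, a homeobox gene of the distal end, had 1.29, 120.1 and 0.406 CPM in Atorvastatin 1, 2 and 3, 241, 21.2 and 170.1 CPM in Model 1, 2 and 3 and 25.6, 141 and 107 CPM in Normal 1, 2 and 3. Hoxb6, a homeobox gene of the proximal part, had 20.8, 2.66 and 49.2 CPM in Atorvastatin 1, 2 and 3 and 1.72, 3.13 and 0.307 CPM in Model 1, 2 and 3. Atorvastatin 1 and 3 were thus high in the proximal gene and low in the distal one, and Model 1 and 3 with Atorvastatin 2 were the other way round. The labels name the tissue only as colon and give no segment.

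**Figure D1:**
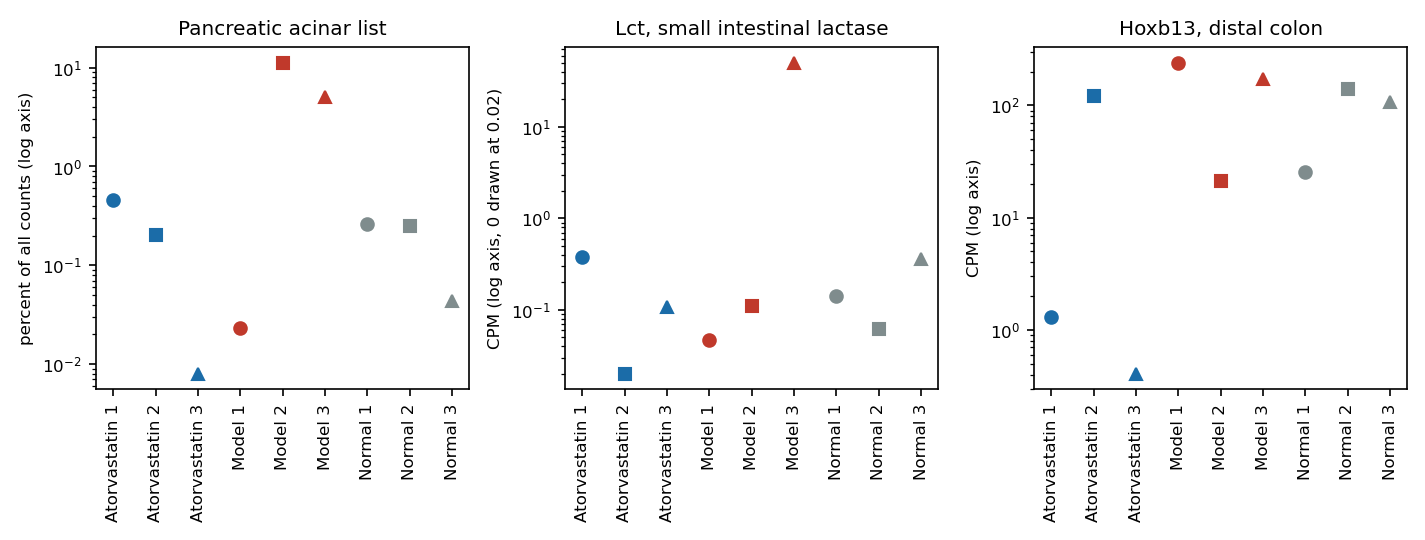
Pancreatic acinar share of all counts in percent (left), Lct in CPM (middle, Atorvastatin 2 at 0 drawn at 0.02) and Hoxb13 in CPM (right), 1 point per library on log axes, with Atorvastatin, Model and Normal from left to right. Acinar RNA is high in Model 2 and 3, Lct in Model 3, and Hoxb13 is near 1 CPM or under in Atorvastatin 1 and 3.

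Genes of the pancreas and of the small intestine were then set apart from the rest. Model 1 carries little acinar RNA, and Lct and Apoa1 were low in it. The whole small intestinal list was not: it took 0.136%, 0.112% and 0.229% of the counts in Model 1, 2 and 3. In Atorvastatin 1, 2 and 3 it took 0.106%, 0.125% and 0.136%. A gene was kept with the rest of the tissue where Model 1 alone lay beyond all 3 Atorvastatin libraries on the side of the difference. Of 718 genes at least 1 lower on the log2 scale in Atorvastatin, 483 met this rule (67.3%). Model 1 also enters that fold change, so this share is not independent of it. Of the 483, 191 were free of overlap (background 7.7%) and 194 had an unadjusted p under 0.05 (background 5.85%). A gene free of overlap has Model 1 beyond all 3 Atorvastatin libraries. Outside the acinar and small intestinal lists it therefore always meets the rule, and these counts are not independent of it. Model 1 was the highest Model library for 246 of the 483. Another 28 were acinar genes and 19 were small intestinal enterocyte genes. For the other 188, Model 1 lay within or under the Atorvastatin range. The highest Model library was Model 2 for 104 of them and Model 3 for 84. The rule itself leaves Model 2 or Model 3 as the highest, and the tissue of origin of these genes was not tested. Of 508 genes at least 1 higher in Atorvastatin, 401 met the rule (78.9%), none was acinar and 2 were small intestinal. Of the 401, 210 were free of overlap (background 7.9%), a count that depends on the rule in the same way.

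Of the 33 acinar genes 28 passed the filter on low counts, which Model 2 and Model 3 decide. Their median log2 fold change was -4.93, and 5.03 when Model 1 alone stood for Model. The lipase Pnlip had 239, 118 and 0.764 CPM in Atorvastatin 1, 2 and 3 and 3.73, 8329.7 and 3736 CPM in Model 1, 2 and 3, with a log2 fold change of -5.08 ± 2.42 (SE). The groups overlap, since Model 1 lies inside the Atorvastatin range. Some genes outside the acinar list were likewise high in Model 2 and Model 3. Pdia2, a disulfide isomerase of the acinar cell, had 7.66, 2.57 and 0.382 CPM in Atorvastatin 1, 2 and 3 and 0.318, 235 and 105 CPM in Model 1, 2 and 3. Reg1, which encodes a secreted lectin-like protein and belongs to the antimicrobial list, had 93, 29.5 and 0.609 CPM in Atorvastatin 1, 2 and 3 and 0.92, 2088 and 1229 CPM in Model 1, 2 and 3. Cuzd1, a zymogen granule gene, had 6.41, 1.34 and 0 CPM in Atorvastatin 1, 2 and 3 and 0.189, 119 and 79.4 CPM in Model 1, 2 and 3. Klk1b5, of a family of near-identical glandular kallikrein genes whose reads may be split between copies, was the single gene that edgeR called without Model 1, where its log2 fold change was -4.85 and its adjusted p 0.0378.

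Among the small intestinal genes, 12 of 30 had an unadjusted p under 0.05, all lower (background 5.85%). Lower without overlap were 6 of the 30 (background 7.7%). The median log2 fold change was -1.32. Without Model 3 the median was -0.11, and with Model 1 alone the median of the same 30 genes was 0.02. Without Atorvastatin 1 or Atorvastatin 3, 6 and 7 genes were lower at an unadjusted p under 0.05. Over all genes these fits had 466 and 636 lower, against 946 with all libraries. Olfm4, a crypt gene of the small intestine, had 0.232, 0.136 and 0.155 CPM in Atorvastatin 1, 2 and 3 and 0.059, 0.0609 and 20.3 CPM in Model 1, 2 and 3. Lyz1, the Paneth cell lysozyme, had 2.04, 2.09 and 2.56 CPM in Atorvastatin 1, 2 and 3 and 1.9, 3.31 and 47.7 CPM in Model 1, 2 and 3. Both were high in Model 3 alone. Angiotensin-converting enzyme Ace was 1 of the 6 genes without overlap. It had 31.9, 66.7 and 48.8 CPM in Atorvastatin 1, 2 and 3 and 111, 85.2 and 120.2 CPM in Model 1, 2 and 3. Its groups did not overlap, its log2 fold change was -1.10 ± 0.29, and it was -1.18 with Model 1 alone.

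**Figure D2:**
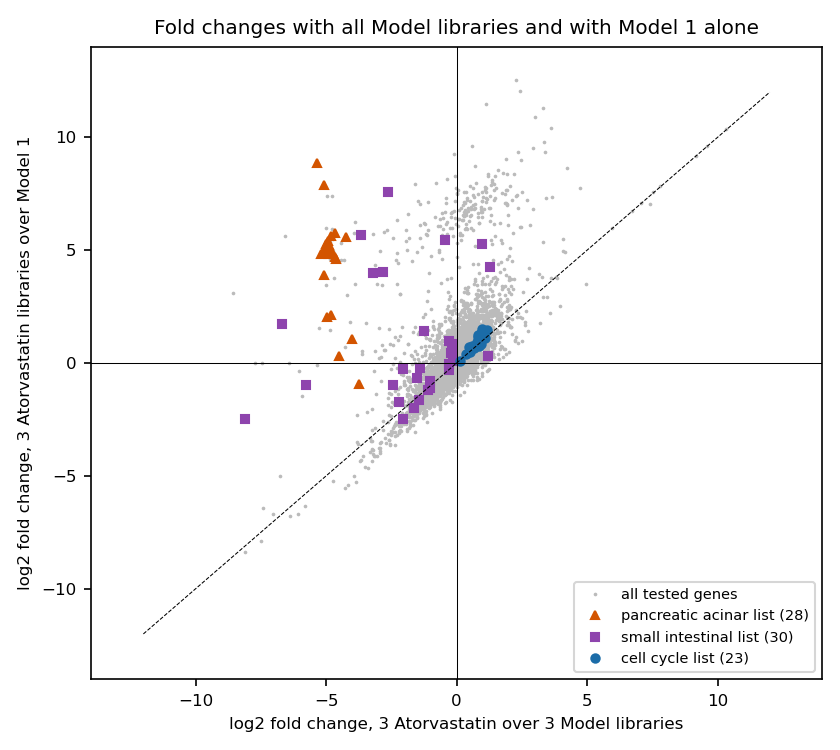
Log2 fold change of each tested gene, Atorvastatin over Model, with all 3 Model libraries (x) and with Model 1 alone (y). The 28 acinar genes (triangles) lie to the left of 0 on x and, but for 1, above 0 on y. The 23 cell cycle genes (circles) lie above 0 on both.

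Genes of DNA replication, chromosome segregation and mitotic entry had positive fold changes throughout their list. In 18 of the 23 the 3 Atorvastatin libraries lay above all 3 Model libraries, where the background is 7.9%, and 8 of the 23 passed DESeq2 (background 1.26%). The median log2 fold change was 0.90, against -0.03 over all genes. It was 1.11 with Model 1 alone and 0.82 with a covariate for colon position, and all 23 genes were positive in both fits. With that covariate 12 of the 23 were higher at an unadjusted p under 0.05, against 439 of all 16160 genes. The summed level of the 23 genes was 1482, 1031 and 999 CPM in Atorvastatin 1, 2 and 3, 575, 545 and 898 CPM in Model 1, 2 and 3 and 1093, 878 and 1054 CPM in Normal 1, 2 and 3.

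Genes of the spindle and its checkpoint came early by p. Bub1b, the checkpoint kinase BubR1, had 42.5, 27.7 and 32.3 CPM in Atorvastatin 1, 2 and 3, 14.7, 13.9 and 20.6 CPM in Model 1, 2 and 3 and 26.9, 21.9 and 25.9 CPM in Normal 1, 2 and 3. Each Atorvastatin library was above every Model and every Normal library. The log2 fold change was 1.06 ± 0.21 (edgeR adjusted p = 0.322, DESeq2 adjusted p = 0.00189). Aurkb, a kinase that corrects the attachment of chromosomes to the spindle, had 22.7, 14 and 15.7 CPM in Atorvastatin 1, 2 and 3 and 8, 6.29 and 10.0 CPM in Model 1, 2 and 3. Its groups did not overlap and its log2 fold change was 1.11 ± 0.24 (DESeq2 adjusted p = 0.00697). Cenpf, a kinetochore protein, had 63.3, 43.7 and 36.5 CPM in Atorvastatin 1, 2 and 3 and 17.9, 19.8 and 31.1 CPM in Model 1, 2 and 3, and a log2 fold change of 1.06 ± 0.25.

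The B cyclins drive entry into mitosis. Ccnb1, cyclin B1, had 33.5, 25 and 22.6 CPM in Atorvastatin 1, 2 and 3 and 9.6, 13.1 and 18.3 CPM in Model 1, 2 and 3, with a log2 fold change of 0.98 ± 0.25. Cdk1, the kinase that cyclin B1 activates, had 40.4, 27.7 and 26.4 CPM in Atorvastatin 1, 2 and 3 and 12.8, 11.8 and 22.5 CPM in Model 1, 2 and 3, a difference of 1.004 ± 0.30 on the log2 scale. In both genes Model 3 came nearest to the Atorvastatin libraries without reaching them. Ccnb2, cyclin B2, had 33.1, 18.4 and 18.4 CPM in Atorvastatin 1, 2 and 3 and 11.3, 9.6 and 15.6 CPM in Model 1, 2 and 3, with a log2 fold change of 0.94 ± 0.27 and no overlap. Top2a, the topoisomerase that untangles sister chromatids, had 207, 142 and 135 CPM in Atorvastatin 1, 2 and 3 and 67.7, 75.4 and 127 CPM in Model 1, 2 and 3. Mki67, a marker of dividing cells, had 360.1, 240.2 and 214 CPM in Atorvastatin 1, 2 and 3 and 120.5, 114 and 230.2 CPM in Model 1, 2 and 3, so that Model 3 overlapped Atorvastatin 3.

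The list also holds genes of DNA replication. Mcm5, a subunit of the replicative helicase, had 71, 49.8 and 56.2 CPM in Atorvastatin 1, 2 and 3 and 27.4, 24.3 and 40.1 CPM in Model 1, 2 and 3, with a log2 fold change of 0.95 ± 0.25. Pcna, the sliding clamp of DNA polymerase, had 89.7, 71.6 and 72.3 CPM in Atorvastatin 1, 2 and 3 and 47.5, 48.1 and 73.8 CPM in Model 1, 2 and 3, and its groups overlapped. The 2 genes of the list without an unadjusted p under 0.05 were Tyms, the thymidylate synthase, at 0.38 ± 0.21, and Ccne1, cyclin E1, at 0.14 ± 0.25. Atorvastatin 1 was the highest of the 6 libraries for all 23 genes. Without it the median was 0.64 and 15 of 23 genes had an unadjusted p under 0.05, and without Model 3 these were 1.17 and 22.

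**Figure D3:**
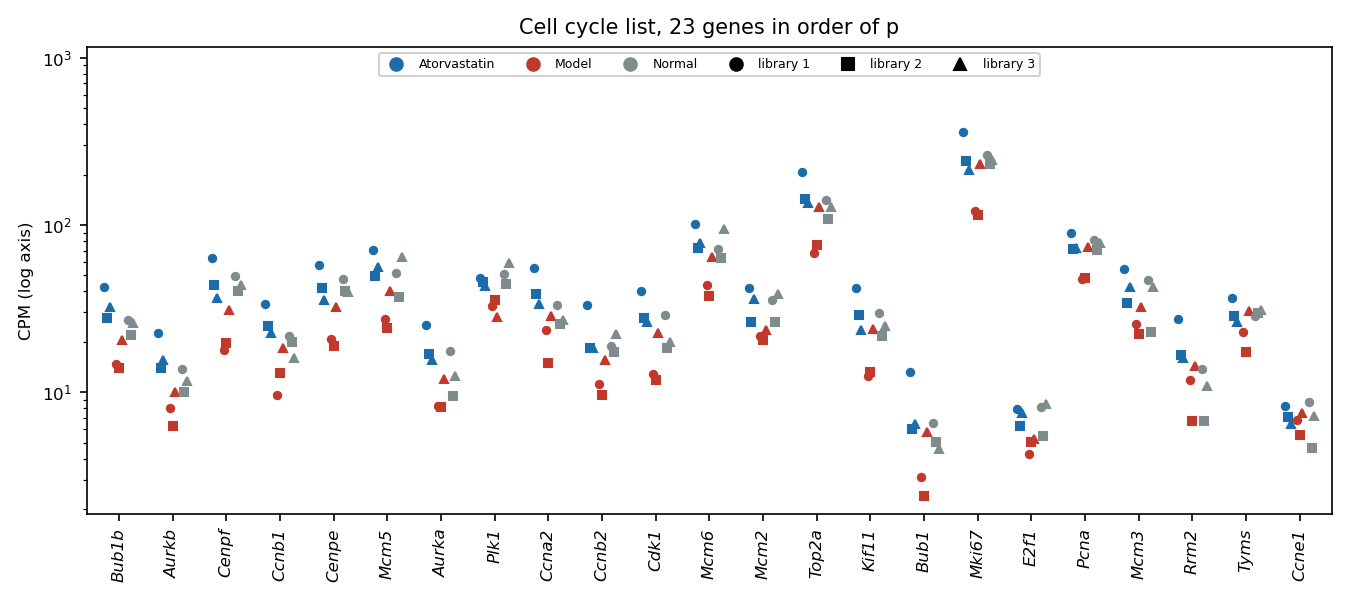
CPM on a log axis of the 23 cell cycle genes in each library, in order of p from left to right, with Atorvastatin, Model and Normal side by side for each gene and a marker shape for each library number. Model 1 and 2 (red circle and square) are the lowest libraries for most genes, and Atorvastatin 1 (blue circle) the highest.

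Many cell cycle promoters carry a cell cycle homology region (CHR), read by the DREAM complex in quiescent cells and by B-MYB and FOXM1 in dividing ones, and CCAAT boxes bound by NF-Y. The promoters below are shown because 4 of the genes just described have both elements in the 300 bases around their start (250 before and 50 after it). The sequences are RefSeq's on GRCm38.p6, 5′ to 3′ on the strand of the gene, and capitals mark the CHR letters TTTGAA or TTCGAA and the letters CCAAT, on either strand.
Bub1b, chr2:118597961-118598260, plus strand: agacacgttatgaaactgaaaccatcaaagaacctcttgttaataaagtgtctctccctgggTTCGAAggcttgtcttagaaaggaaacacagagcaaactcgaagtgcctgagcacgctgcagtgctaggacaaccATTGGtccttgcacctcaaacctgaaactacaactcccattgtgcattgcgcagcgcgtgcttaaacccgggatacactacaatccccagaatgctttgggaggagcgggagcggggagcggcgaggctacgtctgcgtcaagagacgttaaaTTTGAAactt
Ccnb2, chr9:70421505-70421804, minus strand: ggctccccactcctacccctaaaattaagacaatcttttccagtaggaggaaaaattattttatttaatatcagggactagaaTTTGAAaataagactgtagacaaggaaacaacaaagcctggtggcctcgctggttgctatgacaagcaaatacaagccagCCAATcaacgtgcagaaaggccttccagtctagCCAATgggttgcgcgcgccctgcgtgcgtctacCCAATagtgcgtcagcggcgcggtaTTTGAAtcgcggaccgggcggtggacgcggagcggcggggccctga
Cdk1, chr10:69352863-69353162, minus strand: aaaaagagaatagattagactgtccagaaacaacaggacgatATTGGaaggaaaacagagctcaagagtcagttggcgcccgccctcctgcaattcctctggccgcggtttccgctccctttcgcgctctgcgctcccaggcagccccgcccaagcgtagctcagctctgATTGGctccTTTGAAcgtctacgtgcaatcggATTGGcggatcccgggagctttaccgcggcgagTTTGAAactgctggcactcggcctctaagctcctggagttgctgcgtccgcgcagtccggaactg
Top2a, chr11:99024140-99024439, minus strand: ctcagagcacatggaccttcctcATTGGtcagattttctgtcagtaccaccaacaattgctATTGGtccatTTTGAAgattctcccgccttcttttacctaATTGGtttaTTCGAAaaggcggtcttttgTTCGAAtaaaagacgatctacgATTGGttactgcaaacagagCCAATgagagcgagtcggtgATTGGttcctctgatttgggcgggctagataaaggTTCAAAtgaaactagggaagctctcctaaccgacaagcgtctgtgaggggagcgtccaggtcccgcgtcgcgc
Of the 23 genes 21 had a promoter in the RefSeq table. The CHR letters occurred in 11 of these 21 (52.4%), against 19.4% of all 27025 promoters of the same length. CCAAT occurred in 18 of 21 (85.7%), against 37.9% of all promoters. The promoter of Cdk1 holds 2 matches to the CHR and 3 to CCAAT, and that of Top2a 4 and 6. A match is a run of letters and was not tested as a binding site.

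Genes of division outside the list were picked among those of the smallest p. Spc24, a kinetochore subunit, had 9.06, 10.8 and 8.3 CPM in Atorvastatin 1, 2 and 3, 4.42, 4.26 and 5.22 CPM in Model 1, 2 and 3 and 10.2, 10.5 and 10.8 CPM in Normal 1, 2 and 3. Espl1, the separase that cuts cohesin at anaphase, had 18.8, 15.1 and 16.3 CPM in Atorvastatin 1, 2 and 3 and 6.89, 7.45 and 8.39 CPM in Model 1, 2 and 3. Zwilch, of the complex that brings dynein to kinetochores, had 12.8, 9.44 and 8.99 CPM in Atorvastatin 1, 2 and 3 and 3.69, 3.12 and 5.2 CPM in Model 1, 2 and 3. None of the 3 overlapped between groups, and their log2 fold changes were 1.02 ± 0.17, 1.14 ± 0.20 and 1.38 ± 0.25. The gene with the smallest p of all was Efna4, which encodes a membrane-bound ligand of Eph receptors. It had 4.24, 3.59 and 3.45 CPM in Atorvastatin 1, 2 and 3, 0.708, 0.913 and 1.1 CPM in Model 1, 2 and 3 and 2.75, 3.27 and 3.39 CPM in Normal 1, 2 and 3, with a log2 fold change of 2.05 ± 0.27 (edgeR adjusted p = 0.322, DESeq2 adjusted p = 8.24e-10). Its adjusted p ranged from 0.0922 to 0.842 over the other edgeR fits.

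Crypt stem cells depend on Wnt signals, and targets of that pathway leaned the same way. Of 15 stem cell and Wnt target genes 11 had a positive fold change, against 46.2% of all genes. At an unadjusted p under 0.05, 5 were higher and 1 was lower (background 5.95% and 5.85%). Axin2, a feedback inhibitor that reports Wnt activity, had 15.6, 9.51 and 10.9 CPM in Atorvastatin 1, 2 and 3, 3.97, 3.06 and 6.55 CPM in Model 1, 2 and 3 and 25.1, 19.8 and 26.6 CPM in Normal 1, 2 and 3. The Atorvastatin libraries lay between the other groups without touching either, and the log2 fold change was 1.41 ± 0.30 (DESeq2 adjusted p = 0.00275). Lgr5, the R-spondin receptor that marks crypt base stem cells, had 5.12, 2.23 and 1.36 CPM in Atorvastatin 1, 2 and 3 and 0, 0.438 and 0.643 CPM in Model 1, 2 and 3. Ephb3, a receptor that keeps crypt cells in their place, had 19.6, 15.5 and 12.8 CPM in Atorvastatin 1, 2 and 3 and 7.35, 9.64 and 10.2 CPM in Model 1, 2 and 3, with a log2 fold change of 0.82 ± 0.25. The 1 lower gene was Olfm4, whose RNA in Model 3 is given above. Without Atorvastatin 1 the median of the list was 0.17, against 0.40 with it.

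Chaperones went both ways. Hspd1, the mitochondrial chaperonin, had 532, 339.6 and 388 CPM in Atorvastatin 1, 2 and 3 and 168, 209.9 and 309 CPM in Model 1, 2 and 3, with a log2 fold change of 0.87 ± 0.25. Hsp90ab1, the constitutive cytosolic HSP90, had 1871, 1895 and 1997 CPM in Atorvastatin 1, 2 and 3 and 1318, 1264 and 1397 CPM in Model 1, 2 and 3. Both were higher in Atorvastatin without overlap. The inducible small chaperone Hspb1 was on the other side, with 27.8, 26.5 and 24.7 CPM in Atorvastatin 1, 2 and 3 and 48.8, 35.5 and 35.5 CPM in Model 1, 2 and 3, and so was the co-chaperone Dnajb1, at -0.47 ± 0.14. Of the 11 chaperones 3 were higher and 2 lower at an unadjusted p under 0.05 (background 5.95% and 5.85%).

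Cells short of oxygen stabilise HIF-1α, which turns on glycolysis, glucose uptake and the enzymes that in turn mark HIF for decay. Of 15 genes of this response 12 had a negative fold change. An unadjusted p under 0.05 was found for 7, all lower in Atorvastatin (background 5.85%), and 8 did not overlap and were lower (background 7.7%). The median log2 fold change was -0.30, and -0.30 with Model 1 alone. Egln3, a prolyl hydroxylase that HIF induces and that marks HIF for decay, had 45.4, 50.03 and 62.1 CPM in Atorvastatin 1, 2 and 3, 105, 104 and 85 CPM in Model 1, 2 and 3 and 37.6, 42.1 and 31 CPM in Normal 1, 2 and 3. Its log2 fold change was -0.90 ± 0.16 (edgeR adjusted p = 0.322, DESeq2 adjusted p = 0.00149). Bnip3, a receptor for the removal of mitochondria, had 12.2, 13 and 14.7 CPM in Atorvastatin 1, 2 and 3 and 25.1, 28.3 and 28.7 CPM in Model 1, 2 and 3, a log2 fold change of -1.04 ± 0.21. In both genes every Atorvastatin library lay well under every Model library.

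Slc2a1, the glucose transporter GLUT1, had 161, 206 and 232 CPM in Atorvastatin 1, 2 and 3 and 302, 346 and 236 CPM in Model 1, 2 and 3, so Atorvastatin 3 and Model 3 nearly met. Hk2, the hexokinase that traps glucose in the cell, had 433, 572 and 689 CPM in Atorvastatin 1, 2 and 3 and 957, 1091 and 681 CPM in Model 1, 2 and 3. Pfkfb3, which makes an activator of glycolysis, had a log2 fold change of -0.70 ± 0.24. These 3 control the entry of glucose into glycolysis and its pace. Ldha, lactate dehydrogenase A at the end of the pathway, had 1313, 1164 and 1268 CPM in Atorvastatin 1, 2 and 3 and 1385, 1352 and 1296 CPM in Model 1, 2 and 3, a log2 fold change of -0.11 ± 0.16. The 3 genes with a positive fold change were Ndrg1, a stress response gene, at 0.46 ± 0.50, Ankrd37, a target of HIF, at 0.26 ± 0.47, and Car9, a carbonic anhydrase induced by HIF, at 0.08 ± 0.19. Hif1a, which encodes HIF-1α and is not in the list, had 129.7, 158 and 100.4 CPM in Atorvastatin 1, 2 and 3 and 236, 205 and 254 CPM in Model 1, 2 and 3, a log2 fold change of -0.84 ± 0.18 without overlap. Without Model 2 the number of lower genes of the list at an unadjusted p under 0.05 was 3, and without Atorvastatin 1 it was also 3. Over all genes these fits had 1117 and 466 lower by that measure, against 946 with all libraries.

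HIF binds the core letters ACGTG. The promoter of Bnip3 is shown because it carries that core inside the palindrome CACGTG, which capitals mark.
Bnip3, chr7:138909457-138909756, minus strand: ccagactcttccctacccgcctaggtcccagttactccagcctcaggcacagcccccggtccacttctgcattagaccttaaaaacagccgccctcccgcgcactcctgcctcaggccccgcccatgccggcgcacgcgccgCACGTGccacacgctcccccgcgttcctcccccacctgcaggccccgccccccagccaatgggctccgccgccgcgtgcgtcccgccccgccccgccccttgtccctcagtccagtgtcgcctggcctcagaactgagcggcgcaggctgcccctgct
ACGTG, on either strand, was found in 9 of the 14 promoters of the list that RefSeq gives (64.3%) and in 19.7% of all promoters.

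MHC class II molecules carry peptides to the surface of antigen-presenting cells, where CD4+ T cells read them. None of 14 genes of this list had a positive fold change, and 10 were lower without overlap (background 7.7%). An unadjusted p under 0.05 was found for 7 (background 5.85% lower), and the median log2 fold change was -0.82. H2-Aa, a class II chain, had 386, 662 and 706 CPM in Atorvastatin 1, 2 and 3, 1093, 1266 and 1645 CPM in Model 1, 2 and 3 and 308, 492 and 170.2 CPM in Normal 1, 2 and 3, a log2 fold change of -1.19 ± 0.38 (DESeq2 adjusted p = 0.0488). Cd74, the invariant chain that escorts class II molecules, had 639.5, 1209 and 1301 CPM in Atorvastatin 1, 2 and 3 and 1863, 1998 and 2089 CPM in Model 1, 2 and 3. Ciita, the master activator of class II transcription, had 38.9, 66.9 and 93.3 CPM in Atorvastatin 1, 2 and 3 and 110.3, 179 and 129 CPM in Model 1, 2 and 3. Atorvastatin 1 was the lowest of the 6 libraries of both groups for each of these, and the Model libraries were above every Atorvastatin and every Normal library.

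Class II genes are made by antigen-presenting cells and, under interferon-γ, by the epithelium, and bulk RNA cannot tell fewer such cells from less RNA per cell. The macrophage list had a summed level of 965, 1034 and 1139.7 CPM in Atorvastatin 1, 2 and 3, 1217, 1324 and 1398 CPM in Model 1, 2 and 3 and 499, 708 and 421 CPM in Normal 1, 2 and 3, with a median log2 fold change of -0.22 and 0 of 15 genes at an unadjusted p under 0.05. Itgax, the integrin of dendritic cells, had 26.6, 29.1 and 47.4 CPM in Atorvastatin 1, 2 and 3 and 38.9, 35.9 and 40.8 CPM in Model 1, 2 and 3, and overlapped. Both values are given because macrophages and dendritic cells carry class II. The part of cell number in the class II values was not tested. Without Atorvastatin 1 the median was -0.59 and 1 gene had an unadjusted p under 0.05, and without Atorvastatin 2, Model 2 or Model 3 there were 3, 2 and 2. With the 2 covariates for pancreatic and small intestinal RNA the median was -0.71 and no gene did. Over all genes 466 were lower by this measure without Atorvastatin 1, 1137 without Atorvastatin 2, 1117 without Model 2 and 1006 without Model 3. The number was 750 with the 2 covariates, against 946 with all libraries and no covariate.

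Interferon-γ is the main inducer of class II. The interferon-stimulated list had a median log2 fold change of 0.09, with 11 of 19 positive and 3 lower at an unadjusted p under 0.05 (background 5.85%). Gbp2, a guanylate-binding protein that interferon-γ induces, had 133, 303 and 331 CPM in Atorvastatin 1, 2 and 3, 739, 712 and 533 CPM in Model 1, 2 and 3 and 123, 256 and 115 CPM in Normal 1, 2 and 3, a log2 fold change of -1.37 ± 0.40. Irf1, a transcription factor at the head of that response, had 331, 442 and 407 CPM in Atorvastatin 1, 2 and 3 and 637, 631 and 538 CPM in Model 1, 2 and 3. Both were lower without overlap and both passed DESeq2, with adjusted p = 0.0271 and 0.0277. Ifit1, induced mainly by type I interferon, had 54.5, 167 and 225 CPM in Atorvastatin 1, 2 and 3 and 119.9, 94 and 83.8 CPM in Model 1, 2 and 3. Atorvastatin 1 was below and Atorvastatin 2 and 3 above all Model libraries, and the list median was 0.54 without Atorvastatin 1 and -0.32 without Atorvastatin 3.

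The clock runs on a loop in which BMAL1 and CLOCK bind E-boxes and drive Per, Nr1d and the PAR factors Dbp and Tef, which oscillate over the day. Of 18 clock genes 15 had a negative fold change. At an unadjusted p under 0.05, 8 were lower (background 5.85%), and 6 were lower without overlap (background 7.7%). Nr1d1, the repressor REV-ERBα, had 20.9, 24.6 and 28.8 CPM in Atorvastatin 1, 2 and 3, 71, 34.1 and 67.2 CPM in Model 1, 2 and 3 and 95.3, 88.3 and 103 CPM in Normal 1, 2 and 3. Its log2 fold change was -1.21 ± 0.25 (edgeR adjusted p = 0.322, DESeq2 adjusted p = 0.00286). Dbp, an output factor, had 5.5, 8.13 and 9.15 CPM in Atorvastatin 1, 2 and 3, 19.4, 12.5 and 16.2 CPM in Model 1, 2 and 3 and 35.5, 45.7 and 54.8 CPM in Normal 1, 2 and 3. In both genes the order was the same, with Atorvastatin lowest, Model next and Normal highest, and no library crossed.

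Tef, which acts like Dbp, had 67.5, 85.3 and 93.1 CPM in Atorvastatin 1, 2 and 3 and 125, 101 and 123 CPM in Model 1, 2 and 3, a log2 fold change of -0.50 ± 0.15. Arntl, which encodes BMAL1 and peaks opposite to Nr1d1, had 29.2, 34.4 and 22.8 CPM in Atorvastatin 1, 2 and 3 and 36.4, 27.3 and 36.6 CPM in Model 1, 2 and 3, and overlapped. The labels give a light cycle but no hour of death, and the hour and the treatment cannot be told apart for these genes. With the covariate for colon position the number of clock genes at an unadjusted p under 0.05 was 3, and it was 3 without Atorvastatin 1 and 4 without Atorvastatin 3. Over all genes these fits had 480, 466 and 636 lower by that measure, against 946 with all libraries and no covariate. The promoter of Tef is shown because it holds an E-box, CACGTG, marked by capitals.
Tef, chr15:81802423-81802722, plus strand: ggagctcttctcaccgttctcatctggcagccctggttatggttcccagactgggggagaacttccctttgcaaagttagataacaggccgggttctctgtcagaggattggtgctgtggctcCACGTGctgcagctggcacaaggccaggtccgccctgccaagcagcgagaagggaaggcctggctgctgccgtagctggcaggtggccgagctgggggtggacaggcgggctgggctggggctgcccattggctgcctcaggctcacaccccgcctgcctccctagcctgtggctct
CACGTG was present in 5 of the 15 clock promoters that RefSeq gives (33.3%), against 7.2% of all promoters. Because CACGTG holds ACGTG, each E-box counted here is also a match to the hypoxia core.

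**Figure D4:**
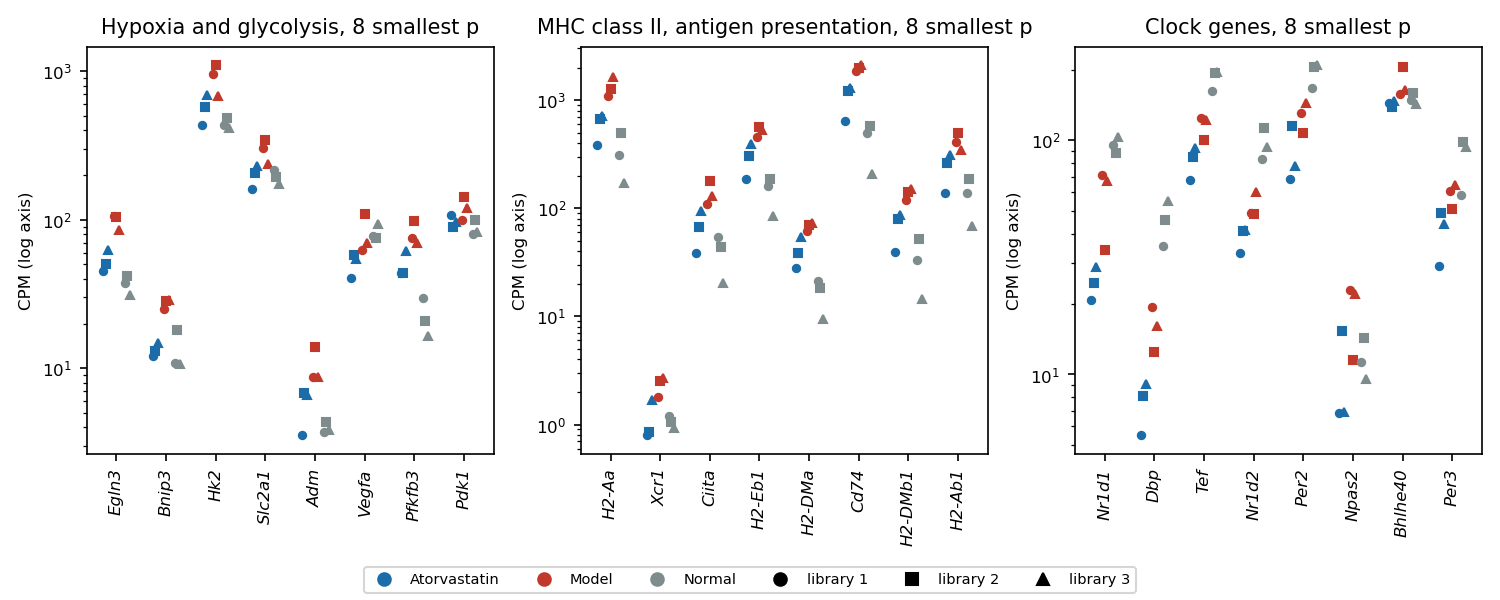
CPM on a log axis of the 8 genes with the smallest p of the hypoxia (left), MHC class II (middle) and clock (right) lists, with Atorvastatin, Model and Normal side by side for each gene. Atorvastatin lies under Model for Egln3, Bnip3, H2-Aa, Cd74, Nr1d1 and Dbp, near the Normal level for Bnip3 and farther from it than Model for Nr1d1 and Dbp.

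Absorptive colonocytes take up water, salt and short-chain fatty acids, and their genes vary along the colon. In the fit without a position term 2 of 20 colonocyte genes were higher and 7 lower at an unadjusted p under 0.05. The background of that fit is 5.95% and 5.85%. With the position term 1 was higher and 2 were lower. In that fit 439 of all 16160 genes were higher and 480 lower. Of the 20 colonocyte genes, 1 was higher and 3 were lower without overlap (background 7.9% and 7.7%). Car1, a carbonic anhydrase abundant in the proximal colon, had 2795, 554 and 3176 CPM in Atorvastatin 1, 2 and 3 and 543, 878 and 192 CPM in Model 1, 2 and 3. Aqp8, a water channel of the surface epithelium, had 103, 934 and 179 CPM in Atorvastatin 1, 2 and 3 and 919, 543 and 1155 CPM in Model 1, 2 and 3. Insl5, a hormone of distal enteroendocrine cells, had 2.9, 49.4 and 2.34 CPM in Atorvastatin 1, 2 and 3 and 113, 12.4 and 121 CPM in Model 1, 2 and 3. In all 3 genes the groups overlapped through Atorvastatin 2, which parted from Atorvastatin 1 and 3 as it did for Hoxb13. The part of position in these values was not tested beyond that covariate.

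Some epithelial genes kept their groups apart in every library. The first of them, Cyp2c55, is also a member of the proximal position list. Cyp2c55, a cytochrome P450 of the colon, had 277, 192 and 420.0 CPM in Atorvastatin 1, 2 and 3, 42.3, 117 and 76.5 CPM in Model 1, 2 and 3 and 561, 320.3 and 371 CPM in Normal 1, 2 and 3. Its log2 fold change was 1.91 ± 0.41, and 1.29 with the position covariate (DESeq2 adjusted p = 0.000415 without it). Ugt1a6a, a glucuronosyltransferase whose exons overlap those of other Ugt1a genes, had 205, 97.6 and 233 CPM in Atorvastatin 1, 2 and 3 and 70.0, 70.9 and 79.9 CPM in Model 1, 2 and 3. The overlap of exons makes its counts uncertain. Its log2 fold change was 1.28, and 0.75 with the position covariate. For Cyp2c55 and Ugt1a6a Atorvastatin 2 was the lowest Atorvastatin library, as for Hoxb6. The part of position in their values was not tested beyond that covariate. Zg16, a lectin of the mucus layer, was lower, with 1294, 2909 and 2807 CPM in Atorvastatin 1, 2 and 3 and 3568, 4821 and 4236 CPM in Model 1, 2 and 3. Nqo1, a quinone reductase that NRF2 induces, had 47.6, 36.2 and 40.7 CPM in Atorvastatin 1, 2 and 3 and 16.9, 22.6 and 30.4 CPM in Model 1, 2 and 3, with a log2 fold change of 0.83 ± 0.22.

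Of 19 tight junction and adhesion genes 15 had a negative fold change, with 1 higher and 1 lower at an unadjusted p under 0.05 (background 5.95% and 5.85%). The median was -0.13, and without Atorvastatin 1 it was 0.01 with 10 of 19 positive. Tjp1, the scaffold ZO-1, had 167, 228 and 193 CPM in Atorvastatin 1, 2 and 3, 311, 245 and 276 CPM in Model 1, 2 and 3 and 204, 234 and 195 CPM in Normal 1, 2 and 3. It was lower in all 3 Atorvastatin libraries, at the Normal level, with a log2 fold change of -0.50 ± 0.15 (edgeR adjusted p = 0.33). Ocln, occludin, had 72.4, 84.5 and 62.3 CPM in Atorvastatin 1, 2 and 3 and 86.1, 54.1 and 111 CPM in Model 1, 2 and 3, and overlapped. Muc2, the main gel-forming mucin, had 11362, 15071 and 16762 CPM in Atorvastatin 1, 2 and 3 and 9679, 20931 and 13211 CPM in Model 1, 2 and 3, and overlapped. Cldn2, a claudin that makes the junction leaky to cations, had 228, 146 and 154 CPM in Atorvastatin 1, 2 and 3, 18.3, 117 and 0.205 CPM in Model 1, 2 and 3 and 0.0142, 0.0877 and 0.0642 CPM in Normal 1, 2 and 3. All 3 Atorvastatin libraries were above the Model libraries, but the Model libraries ranged so widely that the log2 fold change was 1.96 ± 1.27 (edgeR adjusted p = 0.59).

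Genes of cholesterol synthesis overlapped between the 2 groups. Hmgcs1, the cytosolic synthase early in the pathway, had 459, 562 and 379 CPM in Atorvastatin 1, 2 and 3, 507, 325 and 484 CPM in Model 1, 2 and 3 and 446, 630.1 and 575 CPM in Normal 1, 2 and 3, with a log2 fold change of 0.09 ± 0.23. Sqle, squalene epoxidase, had 142, 168 and 123 CPM in Atorvastatin 1, 2 and 3 and 166, 117 and 175 CPM in Model 1, 2 and 3, with a log2 fold change of -0.08 ± 0.18. In both genes the order of libraries was mixed, with Atorvastatin 2 above and Atorvastatin 3 below most Model libraries. Over the 20 genes of cholesterol synthesis the median was 0.03, 0 had an unadjusted p under 0.05 and 0 were free of overlap. With the covariate for colon position the median was 0.23 and 3 genes were higher at an unadjusted p under 0.05, and with Model 1 alone it was -0.20 and 2 were lower.

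Abcg1, a cholesterol exporter that LXR induces, had 14.3, 17.9 and 19.6 CPM in Atorvastatin 1, 2 and 3 and 31, 34.9 and 26.2 CPM in Model 1, 2 and 3, a log2 fold change of -0.83 ± 0.21 (DESeq2 adjusted p = 0.0321). It was lower without overlap. Among 8 genes on which statins act in vessel walls 7 had a negative fold change, and the median was -0.47. Edn1 of that list, endothelin 1, had 6.69, 10.3 and 8.91 CPM in Atorvastatin 1, 2 and 3 and 31.1, 12 and 14.6 CPM in Model 1, 2 and 3, and Model 1 was far above the rest.

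Among genes of inflammation most overlapped between the groups. S100a8, a calgranulin of neutrophils, had 10.5, 1.58 and 0.907 CPM in Atorvastatin 1, 2 and 3, 5.99, 3.07 and 1.5 CPM in Model 1, 2 and 3 and 0.114, 0 and 0.0899 CPM in Normal 1, 2 and 3. S100a9, its partner, had 38, 7.44 and 4.44 CPM in Atorvastatin 1, 2 and 3 and 30.5, 14.6 and 4.3 CPM in Model 1, 2 and 3. Lcn2, a siderophore-binding protein of inflamed epithelium, had 66.8, 15.9 and 30.8 CPM in Atorvastatin 1, 2 and 3 and 23.3, 39.4 and 13.1 CPM in Model 1, 2 and 3. For all 3 the highest library of the 6 was Atorvastatin 1, and the groups overlapped. Il1b, interleukin-1β, had 67.2, 36 and 27.1 CPM in Atorvastatin 1, 2 and 3 and 50.8, 53.5 and 30.8 CPM in Model 1, 2 and 3, and Il6, interleukin-6, had 4.61, 0.363 and 0.107 CPM in Atorvastatin 1, 2 and 3 and 1, 2.7 and 1.1 CPM in Model 1, 2 and 3. Of the 19 neutrophil and monocyte genes tested 15 had a negative fold change and 2 were lower at an unadjusted p under 0.05, and of the 29 cytokines and chemokines 19 and 3. Over all genes 5.85% were lower by this measure, and 46.2% had a positive fold change. The medians of both lists were -0.07, and both depended on single libraries. The neutrophil median was -0.59 without Atorvastatin 1, 0.09 without Atorvastatin 2, 0.14 without Atorvastatin 3, 0.09 without Model 1 and -0.43 without Model 3. It was -0.48 with the covariates for other tissues and -0.43 with that for position. The cytokine median was -0.56 without Atorvastatin 1, 0.05 without Atorvastatin 2, 0.02 without Model 2 and -0.36 without Model 3. The neutrophil and monocyte genes summed to 1376, 1808 and 1603 CPM in Atorvastatin 1, 2 and 3, 2964, 1949 and 2887 CPM in Model 1, 2 and 3 and 1591, 2075 and 1138 CPM in Normal 1, 2 and 3, where 1 gene, Plac8, which the epithelium also expresses, made up most of the sum.

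Nos2, Tnf and Il22 were lower in all 3 Atorvastatin libraries than in any Model library. Among all genes 7.7% were lower in this way. Of the 29 cytokines and chemokines 3 were lower and 1 higher without overlap. Nos2, inducible nitric oxide synthase, had 145, 193 and 238 CPM in Atorvastatin 1, 2 and 3, 393, 371 and 275 CPM in Model 1, 2 and 3 and 22.1, 33.6 and 14.5 CPM in Normal 1, 2 and 3, with a log2 fold change of -0.85 ± 0.30 (edgeR adjusted p = 0.357). Tnf, tumour necrosis factor, had 10.4, 10.7 and 11.4 CPM in Atorvastatin 1, 2 and 3 and 20.3, 19.8 and 14.2 CPM in Model 1, 2 and 3. Its log2 fold change had a wide standard error, at -0.74 ± 0.54 (edgeR adjusted p = 0.641). That error comes from the fit to all 9 libraries. Il22, a cytokine that acts on the epithelium, had 0.177, 0.102 and 0.143 CPM in Atorvastatin 1, 2 and 3 and 0.366, 0.475 and 2.75 CPM in Model 1, 2 and 3, so few reads that no fold change is given.

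Tryptophan is broken down to kynurenine by IDO1 and turned into serotonin by TPH1, and its indole products activate the aryl hydrocarbon receptor. Ido1 had 87.1, 129.7 and 207 CPM in Atorvastatin 1, 2 and 3, 334, 854 and 161 CPM in Model 1, 2 and 3 and 15.9, 39.6 and 5.46 CPM in Normal 1, 2 and 3. Atorvastatin 3 was above Model 3, and the log2 fold change was -1.67 ± 0.75 (edgeR adjusted p = 0.426). Wars, the tryptophanyl-tRNA synthetase that interferon-γ induces, had 193, 283 and 271 CPM in Atorvastatin 1, 2 and 3 and 277, 549.7 and 325 CPM in Model 1, 2 and 3. For both genes Model 2 was the highest library, and the Normal libraries were the lowest. Tph1 had 10.0, 17.6 and 24.5 CPM in Atorvastatin 1, 2 and 3 and 27.4, 18 and 21.3 CPM in Model 1, 2 and 3, and Ahr, the receptor, 23.5, 18.5 and 20.2 CPM in Atorvastatin 1, 2 and 3 and 22.6, 19.1 and 20.3 CPM in Model 1, 2 and 3. Cyp1a1, a target of the receptor, had 0, 0.374 and 0.287 CPM in Atorvastatin 1, 2 and 3 and 0.896, 0.11 and 5.3 CPM in Model 1, 2 and 3, and no fold change is given at these levels. Of 22 genes of tryptophan metabolism 20 had a negative fold change, with a median of -0.46 and 1 lower at an unadjusted p under 0.05 (background 5.85%). That gene was Slc3a2, a chain of amino acid transporters, with 54.4, 50.9 and 60.2 CPM in Atorvastatin 1, 2 and 3 and 74.3, 76.2 and 60.5 CPM in Model 1, 2 and 3.

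Smooth muscle of the gut wall and the vessels of the mucosa were followed by a list each. None of 15 smooth muscle genes had a positive fold change, the median was -0.44, and 3 had an unadjusted p under 0.05 (background 5.85% lower). Cnn1, the calponin of smooth muscle, had 179.6, 180.5 and 202 CPM in Atorvastatin 1, 2 and 3, 399, 260.2 and 208 CPM in Model 1, 2 and 3 and 454, 299 and 429.5 CPM in Normal 1, 2 and 3. Model 1 was the library that stood apart, and Model 3 was level with Atorvastatin 3. Without Model 1 the median was -0.23, and with Model 1 alone it was -0.73. Without Model 3, the library with small intestinal RNA, 10 of the 15 genes had an unadjusted p under 0.05. In that fit 1006 of 16408 genes were lower by this measure. Of 18 endothelial genes 17 had a negative fold change and 4 were lower at an unadjusted p under 0.05 (5.85% of all genes). That number was 13 without Model 3, 9 with Model 1 alone, 10 with the covariates for other tissues and 2 with the position covariate. It was also 2 without Model 1, Model 2, Atorvastatin 2, Atorvastatin 3 or Normal 3. Kdr, the VEGF receptor 2, had 19.9, 16.7 and 17.8 CPM in Atorvastatin 1, 2 and 3 and 31.8, 29.8 and 20.6 CPM in Model 1, 2 and 3, a log2 fold change of -0.59 ± 0.18. Endothelial genes summed to 399.8, 340.4 and 364 CPM in Atorvastatin 1, 2 and 3, 573, 534 and 348 CPM in Model 1, 2 and 3 and 247, 222 and 234 CPM in Normal 1, 2 and 3.

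Among the 47 lists, 18 of 23 cell cycle genes were higher without overlap (background 7.9%). Lower without overlap were 10 of 14 MHC class II genes and 8 of 15 hypoxia genes (background 7.7%). How far these lists depend on single libraries, Atorvastatin 1 among them, is given above. The 8 proximal position genes had a median of 2.76, and of 1.23 with the covariate for position, which was computed from the distal genes. For B and plasma cell genes the median was -0.59 in the fit with all libraries, 0.11 with Model 1 alone and -1.32 with the position covariate. Goblet cell and mucus genes had medians of -0.21, 0.45 and -0.38 in the same 3 fits, so the sign of both medians depends on the fit.

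Some of the other lists are given here, against a background of 5.95% higher and 5.85% lower at an unadjusted p under 0.05. Of 13 targets of NRF2, which guards against oxidants, 11 had a positive fold change, with 2 higher and 1 lower at an unadjusted p under 0.05. Among 24 genes of xenobiotic metabolism 6 were higher and 3 lower by that measure, and among 18 genes of fatty acid oxidation 3 were higher and 2 lower. Of 16 complement and acute phase genes 12 had a negative fold change and 4 were lower at an unadjusted p under 0.05. T and NK cell genes summed to 151, 159 and 356 CPM in Atorvastatin 1, 2 and 3, 241, 242 and 212 CPM in Model 1, 2 and 3 and 150.5, 131 and 46.2 CPM in Normal 1, 2 and 3, and Atorvastatin 3 was the highest library. The unfolded protein response, the immediate early genes and the enteric neuron and glia genes had medians of 0.00, 0.05 and -0.01, and 0 of the 15 neuron and glia genes had an unadjusted p under 0.05.

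**Figure D5:**
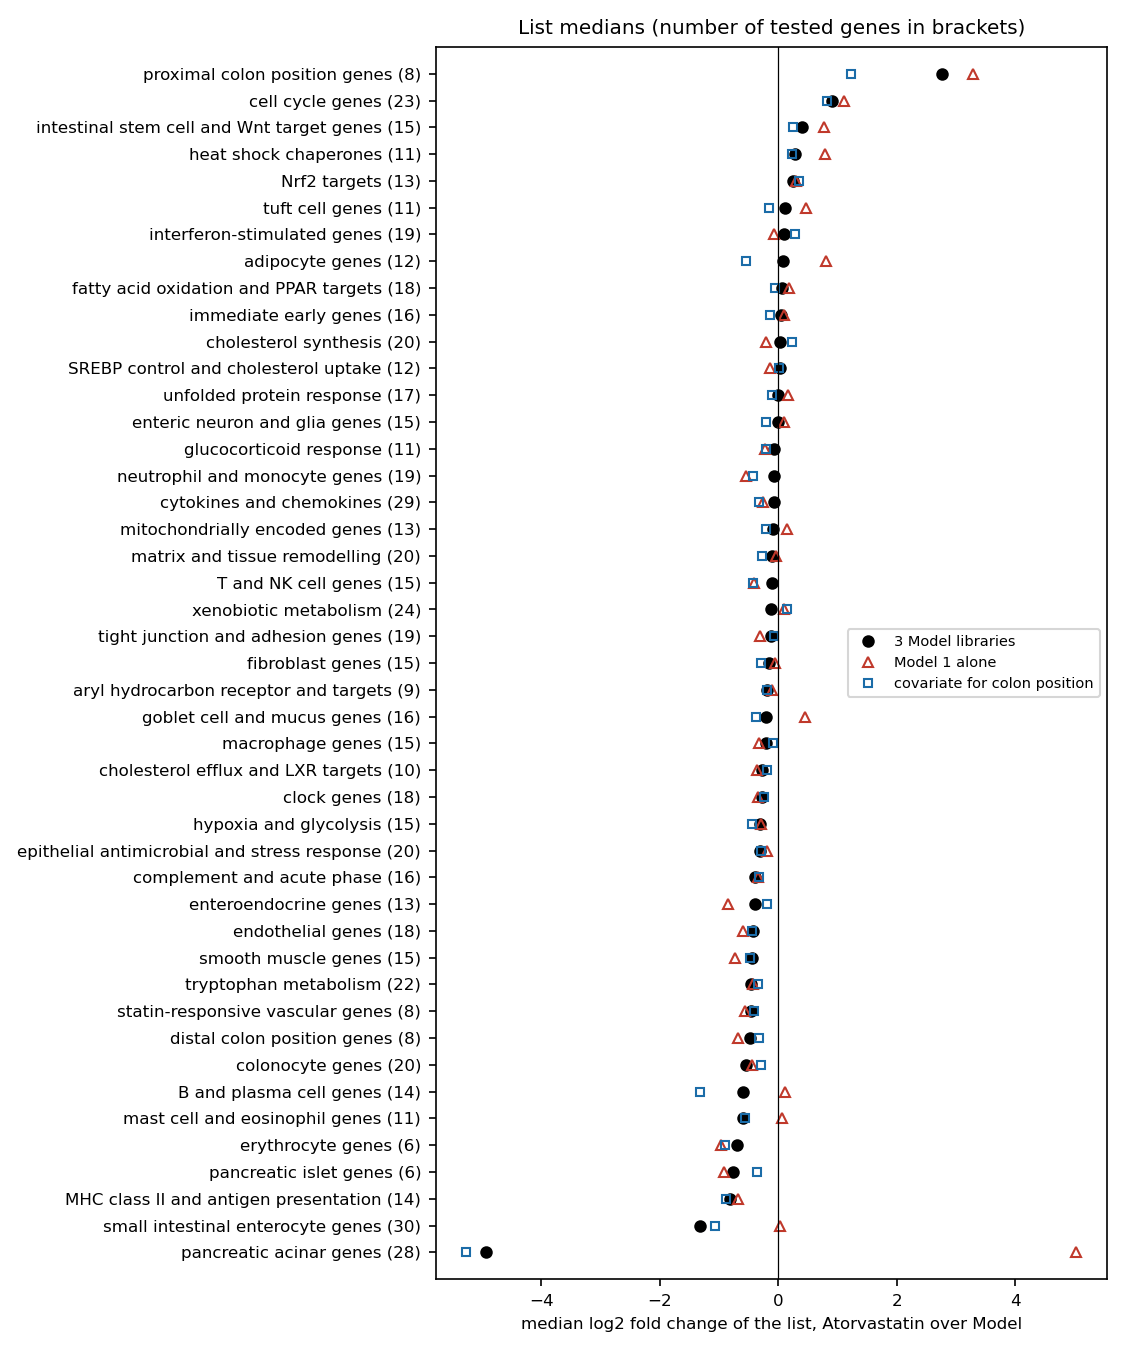
Median log2 fold change of the lists with at least 6 tested genes, but for 1 that is not reported, Atorvastatin over Model, with all 3 Model libraries (filled circles), with Model 1 alone (triangles) and with a covariate for colon position (squares). Cell cycle genes stay near 1 and MHC class II genes near -0.8 in all 3, and acinar genes are at -4.93 with all Model libraries and at 5.03 with Model 1 alone.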

How the data were processed

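Colon RNA of 9 libraries was made with a SMARTer mRNA kit, per the labels' protocols. The authors deposited 1 table of estimated counts per gene, whole numbers for 21720 genes, in which 1 read pair weighs about 4 counts (1997 values of 4 against 346 of 1). Per the submitters' processing notes, bcl2fastq 2.0, HISAT2, StringTie and DESeq2 were used, and the builds rn6 and mm39 are named. Their roles, the annotation and any filters are not given in the sources used here.

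Counts were rounded and tested with edgeR 4.0.16 in R 4.3.3 (quasi-likelihood test, TMM scaling, filterByExpr, group as the single term, all 9 libraries, 3 per group), which left 16160 genes. Adjusted p-values are Benjamini-Hochberg values over all of them. Standard errors are the size of the log2 fold change divided by the root of F. CPM are counts scaled by the TMM-adjusted library size. Total counts of 72584333 to 91737502 per library leave the spread between libraries as the main error. Fold changes with Model 1 alone assume that this library varies like the other groups. DESeq2 1.42.0 was an alternative, and so were other scalings, filters, covariates, a replicate block and each library left out. The position covariate was chosen after seeing the data. The test was checked on simulated counts.

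The rule for named genes took genes by adjusted p and a fixed set of 22. As no gene passed, it gave these 22, and the other names were chosen after their values were seen. The members, the 47 gene lists and the tests were chosen with earlier results of these data known. Promoters come from RefSeq (GRCm38.p6) and were matched by symbol. Results for some genes and 1 list are not reported here.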

Additional observations from a re-analysis of the deposited data

How the results depend on the processing

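With DESeq2 in place of edgeR the number of genes called was 312, against 0. Leaving out 1 library at a time gave 0 to 1 called genes, and the other edgeR alternatives gave 0. The 1 called gene was Klk1b5 without Model 1 and B3gnt6, with a log2 fold change of 3.94 (edgeR adjusted p = 0.0178), without Model 2. With the replicate number as a block there were 0 called genes. The same-numbered libraries of Atorvastatin and Model deviated in opposite directions (correlations of -0.39, -0.22 and -0.38). These correlations run over all genes, where differences in colon position and acinar RNA also enter. They cannot tell whether the numbers pair libraries. Over the 47 list medians and 20 alternatives, 891 of 940 values stayed within the spread of the libraries, and 69 had the other sign. The number of genes at an unadjusted p under 0.05 was 1908, against 1084 without Atorvastatin 1 and 919 with the covariate for colon position. Of 1864 values of the 94 genes named in the other text, 33 passed the adjusted threshold under an alternative, DESeq2 included, and 77 had the other sign, none of them past the threshold. With 3 libraries per group, the spread between them limits what can be called.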

Other observations

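Genes of zinc handling that no list held were chosen after their values were seen. Mt1, a metallothionein that binds zinc and copper, had 98.2, 108 and 57.9 CPM in Atorvastatin 1, 2 and 3, 230.4, 177 and 182 CPM in Model 1, 2 and 3 and 28, 37.9 and 36.6 CPM in Normal 1, 2 and 3. Mtf1, the metal-sensing factor that drives metallothionein genes, had 56.3, 66.8 and 58.9 CPM in Atorvastatin 1, 2 and 3 and 122, 87.5 and 91.5 CPM in Model 1, 2 and 3. Slc39a10, a zinc importer, had 31.6, 15.2 and 25.3 CPM in Atorvastatin 1, 2 and 3 and 11.4, 11.5 and 9.8 CPM in Model 1, 2 and 3. Atorvastatin was lower for the first pair and higher for the importer, without overlap in any of them, and the log2 fold changes were -1.16 ± 0.23, -0.73 ± 0.15 and 1.14 ± 0.24. Their edgeR adjusted p was 0.322 or above, and their DESeq2 adjusted p was 0.00253, 0.0109 and 0.00464.

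A pair of genes tied to ERK signalling was also chosen after their values were seen. Etv4, an ETS factor, had 6.79, 7.17 and 4.43 CPM in Atorvastatin 1, 2 and 3, 1.66, 1.64 and 2.63 CPM in Model 1, 2 and 3 and 6.43, 7.88 and 7.36 CPM in Normal 1, 2 and 3, with a log2 fold change of 1.63 ± 0.28. Dusp6, a phosphatase that switches ERK off, had 87.7, 114 and 102 CPM in Atorvastatin 1, 2 and 3, 184, 169 and 178 CPM in Model 1, 2 and 3 and 86.3, 105 and 57.6 CPM in Normal 1, 2 and 3, with a log2 fold change of -0.80 ± 0.20.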
